A study of Mus musculus with 12 samples.

Results

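The 43 genes described here are interferon-stimulated genes that lie outside the large gene families of the interferon response. They were chosen by symbol, as genes known to respond to interferon, by someone who had results of every comparison of these libraries in view, and the symbols were matched to the gene identifiers of a count table that listed 48526 genes. All 43 symbols were found. A total of 42 had enough counts to be tested among 15523 genes, and Ifi44l did not. Because the list was drawn up with these values known, each count over its members is a description. It is set beside the share of all tested genes that did the same, where that share was counted.

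Interferon-stimulated genes are switched on when type I interferon binds its receptor and the kinases Jak1 and Tyk2 bring a transcription factor complex that holds Stat2 and Irf9 to a DNA element called the interferon-stimulated response element (ISRE). Their products act at many steps of a virus life cycle, from entry and nucleic acid sensing to translation and budding. In macrophages, lipopolysaccharide (LPS), a component of Gram-negative bacterial membranes, is sensed by Tlr4, which induces interferon beta and through it these genes. A low basal level is also kept up in unstimulated macrophages by small amounts of interferon.

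The libraries were of total RNA from bone marrow-derived macrophages (BMDMs) that had been grown from femur and tibia marrow for 6 d in medium with L929-conditioned supernatant. The 12 libraries formed 4 groups of 3. They were WT and HSS9 KO cells, each without LPS (UT, labelled as PBS) or with LPS for 6 hr. The KO was homozygous in all its libraries for a deletion upstream of Tnf, at the enhancer that the study calls TNF-9, and no other allele or agent was named in the labels. The labels call the WT mice littermates while the study's methods describe purchased C57BL/6 mice and KO mice kept as homozygous pairs, so that the deletion and other differences between the sets of mice cannot be told apart. The methods state that males of a set age range were used, and the labels give no age. Nothing in the labels says whether 3 libraries of a group came from separate mice, so the p-values measure the spread between these libraries, which may be technical.

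Libraries held 26154533 to 36423921 counts. The 8 macrophage markers were all present and summed to 27800 to 38000 CPM (counts scaled to library size after TMM scaling) in the 12 libraries. The B cell and T cell markers summed to at most 0.173 CPM. Tnf, the readout of the deletion, was at 889.7 ± 57.4 CPM in WT LPS and 432 ± 15.2 CPM in KO LPS (SD, n = 3) (log2 change of -1.04 with SE 0.0604 and adjusted p 2.76e-10 in edgeR), and was also lower in KO without LPS (log2 change of -0.66 with SE 0.0732 and adjusted p 1.29e-06 in edgeR). Among replicates, the WT LPS libraries differed most from each other. Small structured RNAs took 4.34 to 4.53% of counts in WT UT and 8.07 to 9.17% in KO UT, and 5 to 7.74% in WT LPS against 4.35 to 4.45% in KO LPS.

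The promoters of a few members are shown first, since the ISRE is the element through which these genes are known to be controlled. RefSeq promoter windows (build GRCm38.p6, 250 bases before to 50 bases after the annotated start) were found for 36 of the 43 members, and the other 7 were Zbp1, Mx1, Mx2, Parp9, Parp14, Ifi27l2a and Rtp4. The core of an ISRE was searched on both strands as GAAANNGAAA, a pair of GAAA half-sites with 2 bases between them. It was present in 14 of the 36 members (38.9%) and in 3.99% of the 27025 genes of the promoter table. The interferon-gamma activated sequence (GAS), a DNA element of the interferon-gamma response, was searched as TTCNNNGAA and was present in 8 of the 36 members (22.2%) and in 9.55% of those genes. A match of letters is a description of the window and not a bound site.

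Ifit1, Ifit3 and Ifit3b are shown as neighbouring members of a gene cluster that each hold a pair of matches, Isg15 as the member with the most matches, Rsad2 as the member with the largest LPS response, Bst2 as a member that holds matches and did not pass the test between genotypes without LPS, and Ifi44 as the member with the largest genotype difference and no match. Each line gives the bases directly upstream of the annotated start, 5′ to 3′ on the gene's own strand, with the ISRE letters in capitals. For Ifit1 and Ifi44 the bases inside the GENCODE transcript were left out.
Ifit1: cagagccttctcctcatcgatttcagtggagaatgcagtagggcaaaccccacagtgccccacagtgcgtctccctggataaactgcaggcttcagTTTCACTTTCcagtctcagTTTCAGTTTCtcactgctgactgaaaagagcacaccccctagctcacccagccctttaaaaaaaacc
Ifit3: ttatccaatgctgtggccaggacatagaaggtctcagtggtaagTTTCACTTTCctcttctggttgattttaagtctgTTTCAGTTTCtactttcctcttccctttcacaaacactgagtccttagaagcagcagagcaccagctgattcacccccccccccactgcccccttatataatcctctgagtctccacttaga
Ifit3b: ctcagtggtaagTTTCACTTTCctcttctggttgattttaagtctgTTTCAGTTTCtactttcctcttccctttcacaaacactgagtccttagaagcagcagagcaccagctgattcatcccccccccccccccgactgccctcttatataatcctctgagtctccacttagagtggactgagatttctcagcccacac
Isg15: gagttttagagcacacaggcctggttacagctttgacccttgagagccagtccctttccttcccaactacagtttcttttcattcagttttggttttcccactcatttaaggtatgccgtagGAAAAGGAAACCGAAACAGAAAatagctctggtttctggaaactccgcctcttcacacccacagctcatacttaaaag
Rsad2: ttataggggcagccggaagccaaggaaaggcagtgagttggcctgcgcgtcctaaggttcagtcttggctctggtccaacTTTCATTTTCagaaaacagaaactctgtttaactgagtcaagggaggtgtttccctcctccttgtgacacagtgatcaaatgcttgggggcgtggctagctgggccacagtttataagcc
Bst2: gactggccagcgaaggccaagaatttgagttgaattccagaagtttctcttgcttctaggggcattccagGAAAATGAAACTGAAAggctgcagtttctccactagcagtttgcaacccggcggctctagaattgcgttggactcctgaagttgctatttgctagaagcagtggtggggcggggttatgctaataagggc
Ifi44: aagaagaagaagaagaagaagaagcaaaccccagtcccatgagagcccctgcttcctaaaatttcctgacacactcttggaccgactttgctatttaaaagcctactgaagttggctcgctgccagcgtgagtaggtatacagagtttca

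These windows lie at chr19:34640689-34640870 (plus strand), chr19:34583329-34583528 (plus), chr19:34607757-34607956 (plus), chr4:156200819-156201018 (minus), chr12:26456453-26456652 (minus), chr8:71537473-71537672 (minus) and chr3:151749961-151750110 (minus). In Ifit3 and in Ifit3b the starts of the matches lay 34 bases apart with the same letters in both copies, and in Ifit1 they lay 19 bases apart. The 3 matches of Isg15 overlapped, each 6 bases after the one before, as did both matches of Bst2. The ISRE letters were present in 11 of the 29 members with a window that were lower in KO UT (37.9%) and in 3 of the 6 tested members that did not pass there, a difference that was not tested. The GAS letters were present in 4 of the 29 (13.8%) and in 4 of the 6 (66.7%), also untested.

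**Figure D1:**
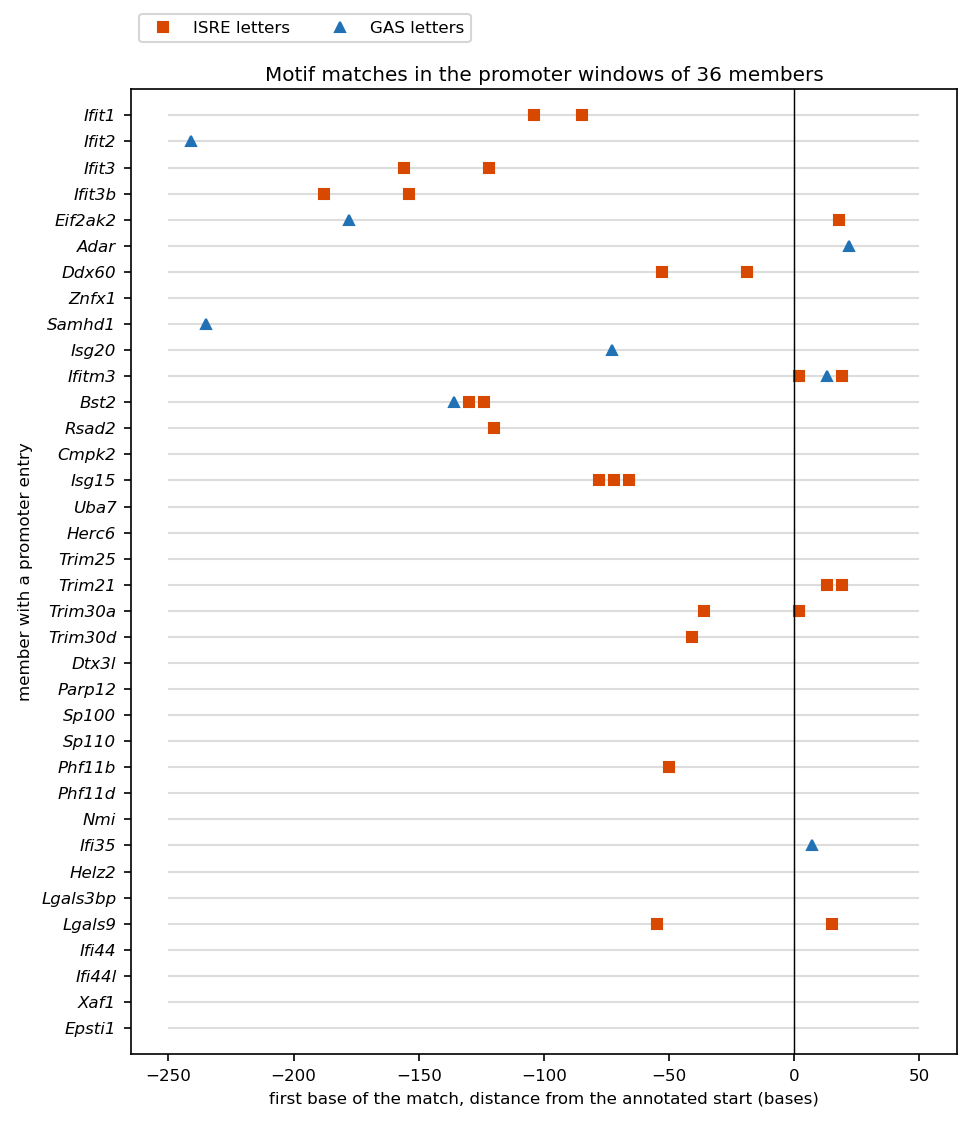
Positions of ISRE letters (squares) and GAS letters (triangles) in the RefSeq promoter windows of 36 members, in bases from the annotated start (0), with 1 row per member. The ISRE letters of Ifit1, Ifit3, Ifit3b, Isg15, Rsad2 and Bst2 all lie upstream of the start, between -188 and -66, whereas those of Eif2ak2, Ifitm3 and Trim21 lie after it.

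The members sat on 14 chromosomes, and 19 of them had another member within 100 kb. The 4 Ifit genes lay together on chromosome 19, with Ifit2 and Ifit3 7.11 kb apart. Rsad2 and Cmpk2 lay 12.8 kb apart on chromosome 12, Ifi44 and Ifi44l 8.78 kb apart on chromosome 3, and Dtx3l and Parp9 overlapped on opposite strands of chromosome 16. Some members share sequence, which bears on their counts because the treatment of multi-mapping reads was not stated. Of all windows of the read length in its transcripts, Ifit3 shared 31.3% with Ifit3b, and Ifit3b shared 27.1% with Ifit3. Sp110 shared 17.2% with other genes, Phf11b 13.4% and Herc6 10.3%, and 27 members shared none. The counts of these genes, and of Dtx3l and Parp9 if strand was not used, are therefore uncertain. Exons of other annotated genes overlap those of further members. They lie on the opposite strand for Eif2ak2, Adar, Znfx1, Sp110 and Ifi35, whose counts are also uncertain if strand was not used. They lie on the same strand for Uba7, Herc6, Parp14, Sp100 and Rtp4, whose counts are uncertain in any case.

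In the main fit, LPS raised every tested member in both genotypes. Trim25 in WT and Ifi27l2a in KO rose little and did not pass under upper-quartile scaling. All 42 were higher in LPS than in UT at an adjusted p below 0.05 in WT and in KO. The share of all genes higher at any fold was not counted for these contrasts, so the 42 stand without it. Of the 42, 40 were called in each genotype, a call being an adjusted p below 0.05 with a change above 1 on the log2 scale. Of all 15523 genes, 19.1% were called higher and 18.7% lower in WT, and 17.7% were called higher and 19.3% lower in KO. The median log2 fold change of the members was 2.81 in WT and 3.20 in KO, beside 0.05 and -0.06 over all genes. Together the members rose from 5906 ± 39.8 CPM (SD, n = 3) in WT UT to 45159.5 ± 1511 CPM in WT LPS. In KO they rose from 4525 ± 56.9 CPM in UT to 42906 ± 528 CPM in LPS. These CPM rest on TMM scaling factors that were higher in UT than in LPS libraries. As a share of raw counts, the members took 0.759 to 0.768% in WT UT and 3.55 to 3.82% in WT LPS. In KO that share was 0.524 to 0.528% in UT and 3.47 to 3.54% in LPS.

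**Figure D2:**
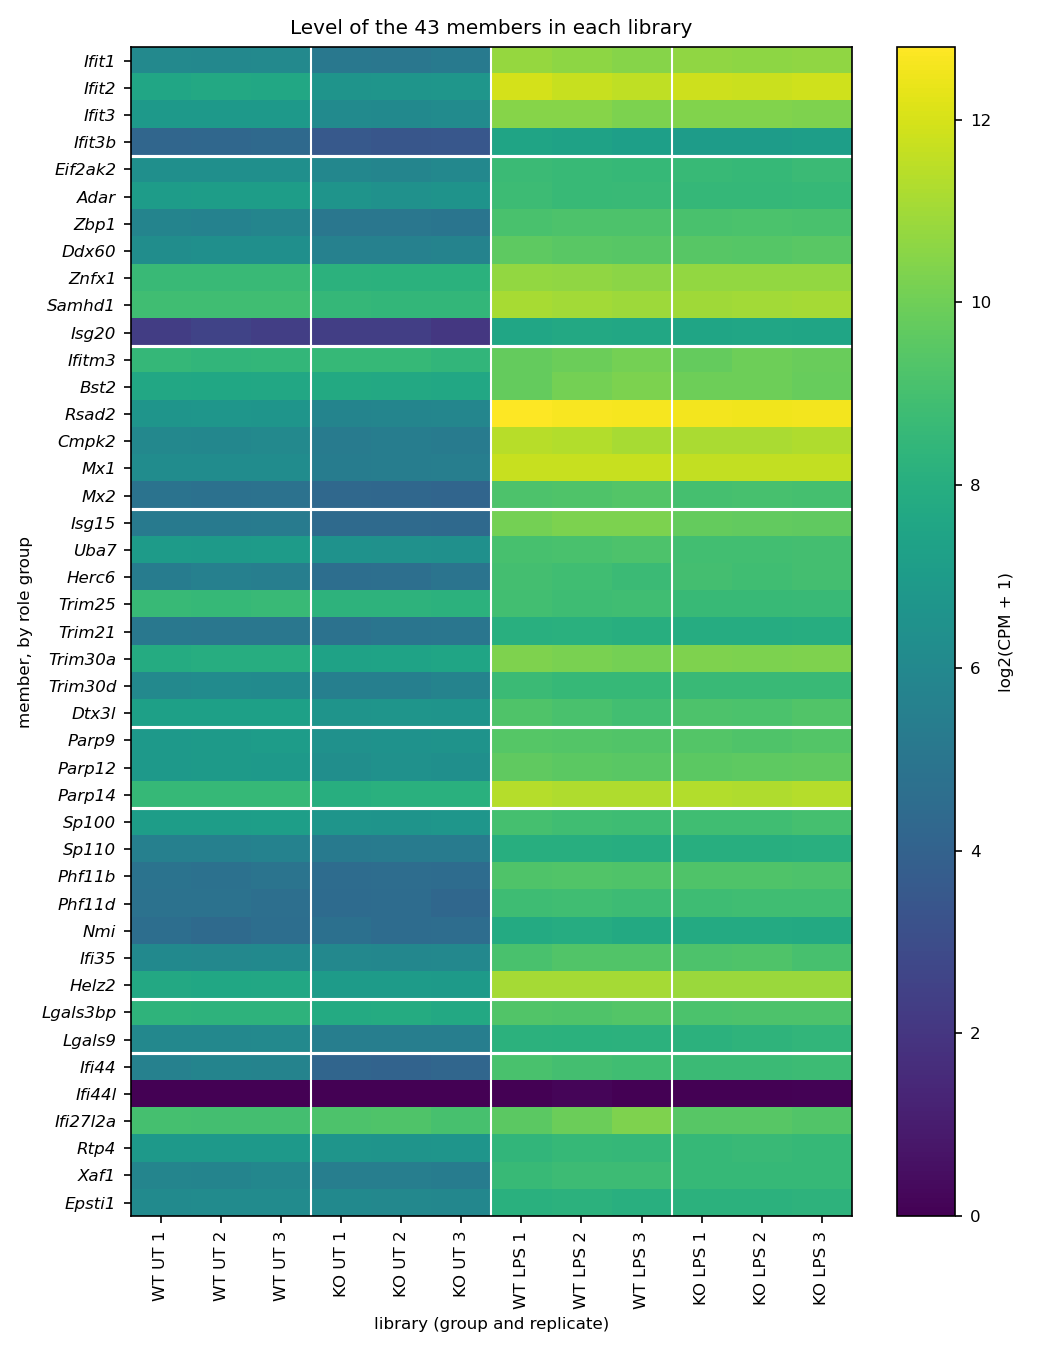
Level of the 43 members in the 12 libraries as log2(CPM + 1), with 1 row per member and role groups separated by white lines. The tested members other than Trim25, whose KO LPS and WT UT libraries overlap, are brighter in the 6 LPS libraries than in the 6 UT libraries, least so Ifi27l2a, and Ifi44l is at or near 0 throughout.

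Of the 5 largest responses in WT, 3 were of genes grouped here as direct antiviral effectors. Rsad2 (ENSMUSG00000020641, chr12:26442746-26456452, minus strand, protein coding) encodes viperin, which makes a chain-terminating nucleotide. It was at 100.82, 105 and 103 CPM in the WT UT libraries and 7101, 6519 and 6246 CPM in WT LPS. In KO it was at 54.0, 55.4 and 57.1 CPM in UT and 5981, 5889 and 6157 CPM in LPS. The LPS libraries were far above the UT libraries in both genotypes, 64.3-fold in WT (log2 change of 6.01 with SE 0.0599 and adjusted p 1.34e-25 in edgeR) and 108-fold in KO (log2 change of 6.76 with SE 0.0623 and adjusted p 3.75e-26 in edgeR). Its neighbour Cmpk2 (ENSMUSG00000020638, chr12:26469204-26479837, plus strand), a mitochondrial nucleotide kinase that feeds the viperin reaction, was at 61.8, 58.8 and 63.0 CPM in WT UT and 2735, 2557 and 2256 CPM in WT LPS. It was at 39.4, 41.6 and 39.3 CPM in KO UT and 2289, 2291 and 2451 CPM in KO LPS. Its log2 fold change was 5.36 in WT (SE 0.0721) and 5.87 in KO (SE 0.0743).

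Mx1 and Mx2 belong to a family of dynamin-like GTPases that trap viral nucleocapsids. Whether working Mx protein is made in these cells cannot be read from counts. Mx1 (ENSMUSG00000000386, chr16:97447035-97462907, minus strand) was at 73.6, 72.8 and 74.1 CPM in WT UT and 3427, 3318 and 3361 CPM in WT LPS, and at 40.7, 41.8 and 43.2 CPM in KO UT and 3151, 3143 and 3164 CPM in KO LPS. It rose 45.8-fold in WT and 75.2-fold in KO. Mx2 (ENSMUSG00000023341, chr16:97535308-97560900, plus strand), which the annotation lists as a polymorphic pseudogene, rose from 27.9, 26.5 and 27.6 to 603, 617 and 651 CPM in WT and from 18.9, 18.1 and 17.3 to 525, 528 and 517 CPM in KO. Bst2, the tetherin that holds budding virions, and Ifitm3, which blocks fusion of virus with the endosome, had smaller log2 fold changes of 2.42 and 1.45 in WT and 2.19 and 1.36 in KO.

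Isg20 (ENSMUSG00000039236, chr7:78913424-78920396, plus strand), an exonuclease that degrades single-stranded RNA, had the lowest level per kb of the tested members before LPS and was among the largest in response. It was at 3.98, 4.88 and 4.13 CPM in WT UT and 190.3, 212 and 206 CPM in WT LPS. In KO it was at 4.11, 4.17 and 3.19 CPM in UT and 184, 190.0 and 184 CPM in LPS. The rise was 46.8-fold in WT and 48.9-fold in KO, and the UT libraries of both genotypes overlapped. The other members that act on nucleic acids rose less. In WT their log2 fold changes were 3.47 for Zbp1, a sensor of Z-form nucleic acids, 3.22 for Ddx60, a helicase, 2.28 for Eif2ak2, the kinase PKR that halts translation on double-stranded RNA, 2.15 for the dNTP hydrolase Samhd1, 1.97 for the helicase Znfx1 and 1.61 for Adar, which edits double-stranded RNA.

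The IFIT proteins bind foreign RNA 5′ ends and block its translation. Ifit1 (ENSMUSG00000034459, chr19:34640871-34650009, plus strand) was at 64.4, 61.8 and 64.6 CPM in WT UT and 1738, 1577 and 1395 CPM in WT LPS. In KO it was at 34.1, 32.7 and 36.7 CPM in UT and 1602, 1578 and 1642 CPM in LPS. The KO UT libraries were the lowest and the LPS libraries of both genotypes overlapped, so the fold over UT was 24.7 in WT and 46.5 in KO. Ifit2 (ENSMUSG00000045932, chr19:34550694-34576419, plus strand) went from 191, 207 and 199.9 to 4023, 3424 and 3039 CPM in WT and from 98.5, 100.02 and 103 to 3667, 3509.8 and 3797 CPM in KO. Ifit3 rose by 3.51 (log2) in WT and 4.25 in KO, and Ifit3b, which shares sequence with it, by 3.13 and 3.72.

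Isg15 (ENSMUSG00000035692, chr4:156199424-156200818, minus strand) encodes a ubiquitin-like protein that is attached to new proteins, with Uba7 as its activating enzyme and Herc6 as its ligase in the mouse. Isg15 was at 36.3, 37.6 and 38.8 CPM in WT UT and 1112, 1214 and 1225 CPM in WT LPS. It was at 20.3, 20.1 and 19.6 CPM in KO UT and 875, 857 and 804 CPM in KO LPS. KO libraries were below WT libraries both without and with LPS, while the rise was 31.5-fold in WT and 42.3-fold in KO. Herc6 (ENSMUSG00000029798, chr6:57581000-57664632, plus strand) was at 40.9, 46.0 and 42.8 CPM in WT UT, 24.0, 24.6 and 29.3 CPM in KO UT, 504, 475 and 425 CPM in WT LPS and 501, 460.5 and 496 CPM in KO LPS. Among the tripartite motif ubiquitin ligases, the log2 fold change in WT was 3.03 for the antibody receptor Trim21, 2.27 for Trim30a, 2.56 for Trim30d and 0.23 for Trim25, a ligase of the RNA sensor RIG-I that was the smallest of the 42 in WT. That value of Trim25 was 0.05 under upper-quartile scaling and no longer passed (edgeR adjusted p 0.304).

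Dtx3l (ENSMUSG00000049502, chr16:35926511-35939151, minus strand), a ubiquitin ligase that pairs with Parp9, was at 153, 155 and 155 CPM in WT UT and 625, 547 and 483 CPM in WT LPS. It was at 95.9, 100.5 and 97.7 CPM in KO UT and 595, 579 and 629 CPM in KO LPS. The ADP-ribosyltransferase family members Parp9, Parp12 and Parp14 rose by 2.41, 2.68 and 2.73 (log2) in WT and by 2.82, 3.24 and 3.23 in KO. The 7 nuclear and transcription-related members rose by 1.76 to 4.49 in WT and 2.25 to 4.77 in KO. The largest of them was the PHD finger gene Phf11b. The nuclear body proteins Sp100 and Sp110 rose by 1.76 and 2.42 in WT, the Stat-interacting protein Nmi and its partner Ifi35 by 3.34 and 3.25, and the helicase Helz2 by 3.41.

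Of the remaining members, the galectin Lgals9 and the galectin-binding glycoprotein Lgals3bp rose by 2.22 and 1.02 in WT. Xaf1, an antagonist of the apoptosis inhibitor XIAP, rose by 2.89, Epsti1 by 1.99 and Rtp4, a chaperone of membrane receptors, by 1.59. Ifi44 (ENSMUSG00000028037, chr3:151730922-151749960, minus strand) went from 48.4, 53.9 and 51.7 to 557, 507 and 474 CPM in WT and from 17.0, 15.7 and 17.9 to 421, 422 and 438 CPM in KO. Its neighbour Ifi44l had no count in the 6 UT libraries and at most 3 counts in an LPS library, which is not above the floor of 3 counts, and no fold is given for it.

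Ifi27l2a (ENSMUSG00000079017, chr12:103442167-103443680, minus strand), a small hydrophobic membrane protein of the ISG12 family, was the exception in KO. It was at 518, 505 and 509 CPM in WT UT and 757, 971 and 1258 CPM in WT LPS. In KO it was at 586, 621 and 536 CPM in UT and 716, 712 and 644 CPM in LPS. The rise in KO was small (log2 change of 0.25 with SE 0.109 and adjusted p 0.0455 in edgeR) and did not pass in DESeq2, with a replicate block or under upper-quartile scaling (adjusted p 0.0988, 0.0615 and 0.628), nor without KO UT replicate 1 or 3 or KO LPS replicate 1 or 2. The spread within WT LPS was the widest of its groups, with a SD of 251 CPM.

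Levels can be compared between genes only per length of exon. Averaged over the 4 groups, the highest were Ifi27l2a at 1499.9, Ifitm3 at 974 and Rsad2 at 738 CPM per kb. The lowest were Ifi44l at 0.0104, Sp110 at 22.3 and Herc6 at 27.5 CPM per kb. The order differed between groups. In WT LPS, Ifi27l2a was at 2149.6, Isg15 at 1565, Rsad2 at 1528 and Ifitm3 at 1448 CPM per kb, whereas Rsad2 was at 23.7 CPM per kb in WT UT. In WT UT, Ifi27l2a and Ifitm3 were at 1103 and 529 CPM per kb. Exon length here is that of all annotated exons of a gene, so a gene with many unused exons reads low.

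Without LPS, most members were lower in KO than in WT. Of the 42 tested, 35 were lower and 0 higher at an adjusted p below 0.05, whereas 9.69% of all genes were lower and 14.1% higher at that threshold. The differences were mostly smaller than the fold required for a call. Only Ifi44 was called, beside 0.799% of all genes called lower and 1.02% called higher. The median log2 fold change was -0.50, beside 0.00 over all genes. In 36 members all 3 KO libraries were below all 3 WT libraries, as in 19.1% of all genes, and in 2 members, Bst2 and Ifi27l2a, they were all above, as in 21.6% of all genes. The summed level of 4525 ± 56.9 CPM in KO UT was below that of 5906 ± 39.8 CPM in WT UT in every library.

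**Figure D3:**
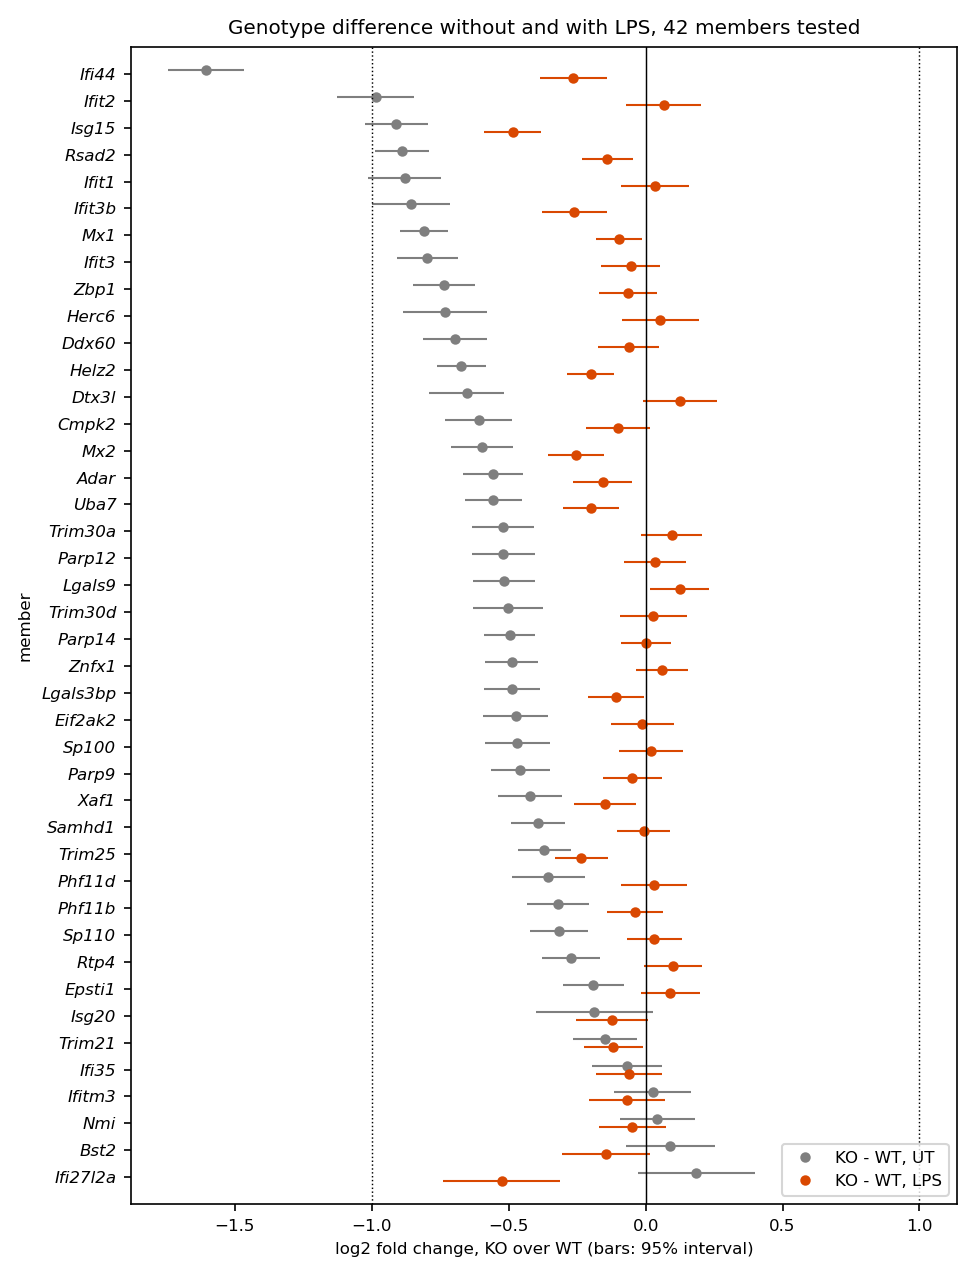
Log2 fold change of KO over WT for the 42 tested members without LPS (grey) and with LPS (orange), with 95% intervals as bars and the fold needed for a call as dotted lines. The grey points run from -1.61 for Ifi44 to 0.19 for Ifi27l2a, with 35 members passing below 0, whereas the orange points run from -0.53 to 0.12 and gather near 0.

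Ifi44, an interferon-induced cytosolic protein, showed the largest difference. Its 3 WT UT libraries were at 48.4, 53.9 and 51.7 CPM and its 3 KO UT libraries at 17.0, 15.7 and 17.9 CPM. The groups were far apart, with KO 3.04-fold lower (log2 change of -1.61 with SE 0.0700 and adjusted p 1.68e-12 in edgeR). Ifit2 followed, with 199 ± 8.23 CPM in WT and 100.55 ± 2.41 CPM in KO (SD, n = 3), a log2 change of -0.99 (SE 0.0718) that fell just short of the fold required for a call. Ifit2 was the second member called when scaling used RLE or upper-quartile factors or when DESeq2 was used, and without WT UT replicate 1 or KO UT replicate 3.

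The whole IFIT group was lower in KO UT, at -0.88 for Ifit1, -0.80 for Ifit3 and -0.86 for Ifit3b on the log2 scale. Isg15 was 1.88-fold lower (log2 change of -0.91 with SE 0.0589 and adjusted p 5.52e-10 in edgeR), Rsad2 1.85-fold lower (log2 change of -0.89 with SE 0.0503 and adjusted p 6.46e-11 in edgeR) and Ifit1 1.84-fold lower (log2 change of -0.88 with SE 0.0679 and adjusted p 8.19e-09 in edgeR). In each of these the KO and WT libraries did not overlap. Among the direct effectors, Mx1, Cmpk2 and Mx2 were also lower, at -0.81, -0.61 and -0.60, whereas Ifitm3 and Bst2 did not pass, with 95% intervals of -0.11 to 0.17 and -0.07 to 0.25. Of the 7 members that act on nucleic acids 6 were lower, from -0.74 for Zbp1 to -0.39 for Samhd1, and Isg20 did not pass (-0.40 to 0.03).

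Of the 8 ubiquitin and ISG15 members 7 were lower, among them Herc6 (-0.73), Dtx3l (-0.65), Uba7 (-0.56) and Trim25 (-0.37). Trim21 had an interval of -0.27 to -0.03 and an adjusted p of 0.0765 in edgeR. All 3 Parp genes were lower, between -0.52 and -0.46, as were both galectin members. In the nuclear group 5 of 7 were lower, led by Helz2 (-0.67), while Nmi and Ifi35, which form a complex, had intervals of -0.09 to 0.18 and -0.20 to 0.06. Xaf1, Rtp4 and Epsti1 were lower by smaller amounts (-0.42, -0.27 and -0.19). The value of Epsti1 lost its pass when any 1 of 4 UT libraries was left out (WT UT replicate 2 or 3, KO UT replicate 2 or 3). Ifi27l2a was at 0.19 with an interval of -0.03 to 0.40 and did not pass.

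Other measures moved with genotype in the UT libraries. The share of small structured RNAs, 8.07 to 9.17% in KO UT against 4.34 to 4.53% in WT UT, did not overlap between the genotypes. A fit with that share as a covariate used 1 slope for all groups. The share varied most within WT LPS (5 to 7.74%), so the slope rests mostly on those 3 libraries. Such a fit cannot tell the share from genotype in UT. In it, 21 members were lower and 0 higher, beside 1.55% of all genes lower and 3.68% higher. Of these, 18 were among the 35, and Isg15 (-1.12) and Ifi44 (-1.22) went past the fold for a call. The share of all genes called in that fit was not counted. Rsad2 (-0.60), Ifit2 (-0.39) and Ifit1 (-0.38) passed at smaller values. The 17 that no longer passed were Cmpk2 (-0.24, edgeR adjusted p 0.224), Herc6 (-0.24, edgeR adjusted p 0.347), Dtx3l (-0.15, edgeR adjusted p 0.576), Eif2ak2, Znfx1, Samhd1, Trim25, Trim30a, Trim30d, Parp9, Parp12, Sp100, Sp110, Phf11b, Phf11d, Rtp4 and Epsti1. With protein-coding genes alone, from which small RNAs and Mx2 are absent, 34 were lower, and the share of all genes lower in that fit was not counted. The 6 neutrophil and precursor markers summed to 18 to 19.3 CPM in WT UT and 40.1 to 45.2 CPM in KO UT. Nearly all of it was S100a8 and S100a9, with Ly6g at 0 in every library. The 4 that were tested were all called higher in KO UT, beside 1.02% of all genes. The macrophage markers summed to 33000 to 33900 CPM in WT UT and 37000 to 38000 CPM in KO UT. The part of these differences in the lower members was not tested. In bulk libraries, fewer cells with the RNA and less RNA per cell cannot be told apart.

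The genes that carry the interferon signal were read from a list of 12 (Ifnb1, the receptor genes Ifnar1 and Ifnar2, Jak1, Tyk2, Stat2, Irf9, Irf7, Irf3, Irf1, Usp18 and Socs1). Without LPS, 5 of the 12 were lower and 2 higher in KO at an adjusted p below 0.05, beside 9.69% of all genes lower and 14.1% higher. With the small RNA share as a covariate, 3 were lower (Irf7, Stat2 and Usp18) and 0 higher, beside 1.55% of all genes lower and 3.68% higher. Irf7, a transcription factor that is itself interferon-stimulated, was at 162 ± 2.08 CPM in WT and 70.0 ± 0.622 CPM in KO (SD, n = 3) and was the 1 gene called, beside 0.799% of all genes called lower (log2 change of -1.21 with SE 0.0564 and adjusted p 3.31e-12 in edgeR). Stat2 was lower at -0.74, and Usp18, an inhibitor of receptor signalling and itself interferon-stimulated, at -0.69. Irf9 and Irf1 were the other two, and Ifnar1 and Ifnar2 were the genes that were higher. Ifnb1 was at or under 3 counts in every UT library, so a difference in it was not detectable at this depth.

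After LPS the genotypes were close. Of the 42 members, 8 were lower and 0 higher in KO at an adjusted p below 0.05, beside 6.54% of all genes lower and 7.78% higher. None was called in edgeR, beside 0.664% of all genes called lower and 0.586% called higher, and 14 members had an unadjusted p below 0.05, as had 28.5% of all genes. DESeq2 also called 0 and had 9 lower and 0 higher, beside 7.81% and 10.1% of the genes to which it gave an adjusted p. The median log2 fold change was -0.06, beside -0.01 over all genes. In 15 members all KO libraries were below all WT libraries, as in 14.9% of all genes, and in 1 (Lgals9) all were above, as in 14.1%. Without WT LPS replicate 1, 14 members passed, 11 lower and 3 higher, beside 8.51% of all genes lower and 11.8% higher in that fit. With the small RNA share as a covariate, 12 were lower and 0 higher, 5 of them among the 8, beside 4.53% of all genes lower and 4.17% higher in that fit. The macrophage markers summed to 27800 to 29400 CPM in WT LPS and 31200 to 32600 CPM in KO LPS. The 4 stromal markers (Col1a1, Col1a2, Col3a1 and Pdgfra) summed to 1.27 to 3.21 CPM in WT LPS and 4.69 to 5.9 CPM in KO LPS, and the 3 collagen genes were called higher in KO LPS. The part of both lists in these values was not tested.

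The 8 lower members were Ifi27l2a, Isg15, Ifi44, Ifit3b, Mx2, Trim25, Uba7 and Helz2. Isg15 was at 1183 ± 62.4 CPM in WT and 845 ± 36.7 CPM in KO (SD, n = 3), with no overlap (log2 change of -0.49 with SE 0.0532 and adjusted p 3.59e-06 in edgeR), and its activating enzyme Uba7 was at -0.20. The Uba7 value did not pass without the filter on low counts, without KO LPS replicate 1 or 2, or with the small RNA share as a covariate (-0.11, edgeR adjusted p 0.294). Ifi44 was at 513 ± 41.5 and 427 ± 9.21 CPM (log2 change of -0.26 with SE 0.0626 and adjusted p 0.00713 in edgeR). It was at -0.43 with that covariate (edgeR adjusted p 3.23e-05). Ifit3b was at 175, 163 and 150.4 CPM in WT LPS and 134, 132 and 141 CPM in KO LPS (log2 change of -0.26 with SE 0.0601 and adjusted p 0.006 in edgeR) and passed with that covariate too (-0.40, edgeR adjusted p 1.52e-04), while Ifit3, with which it shares sequence, had an interval of -0.16 to 0.05. Mx2 was at 624 ± 24.5 and 523 ± 5.68 CPM (log2 change of -0.25 with SE 0.0516 and adjusted p 0.00221 in edgeR), and did not pass with that covariate (-0.16, edgeR adjusted p 0.0876).

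Ifi27l2a had the largest difference after LPS (log2 change of -0.53 with SE 0.11 and adjusted p 0.00268 in edgeR), from a mean of 995 ± 251 CPM in WT and 691 ± 40.4 CPM in KO. The lowest WT library was close to the highest KO library, and the value was -0.32 without WT LPS replicate 3 and -0.69 without WT LPS replicate 1. Within WT LPS its level was highest in the library with the highest small RNA share, and with that share as a covariate the difference was -0.01 (edgeR adjusted p 0.938). Of the 5 members with the largest responses in WT, Isg15 passed and the other 4 did not, with 95% intervals of -0.23 to -0.05 for Rsad2, -0.26 to 0.01 for Isg20, -0.18 to -0.01 for Mx1 and -0.22 to 0.01 for Cmpk2. Of the 12 upstream genes, 3 were lower (Usp18, Stat2 and Socs1) and 3 higher (Ifnar1, Ifnar2 and Jak1) in KO LPS, beside 6.54% of all genes lower and 7.78% higher. With the small RNA covariate, 2 were lower (Usp18 and Stat2) and 1 higher (Ifnar1), beside 4.53% and 4.17% of all genes. The one with the largest difference did not pass. It was Ifnb1, which encodes interferon beta, at 44, 40 and 46 counts in WT LPS and 26, 23 and 24 counts in KO LPS, or 1.87 ± 0.272 and 0.913 ± 0.0730 CPM (SD, n = 3), with no overlap (log2 change of -1.03 with SE 0.381 and adjusted p 0.0797 in edgeR).

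**Figure D4:**
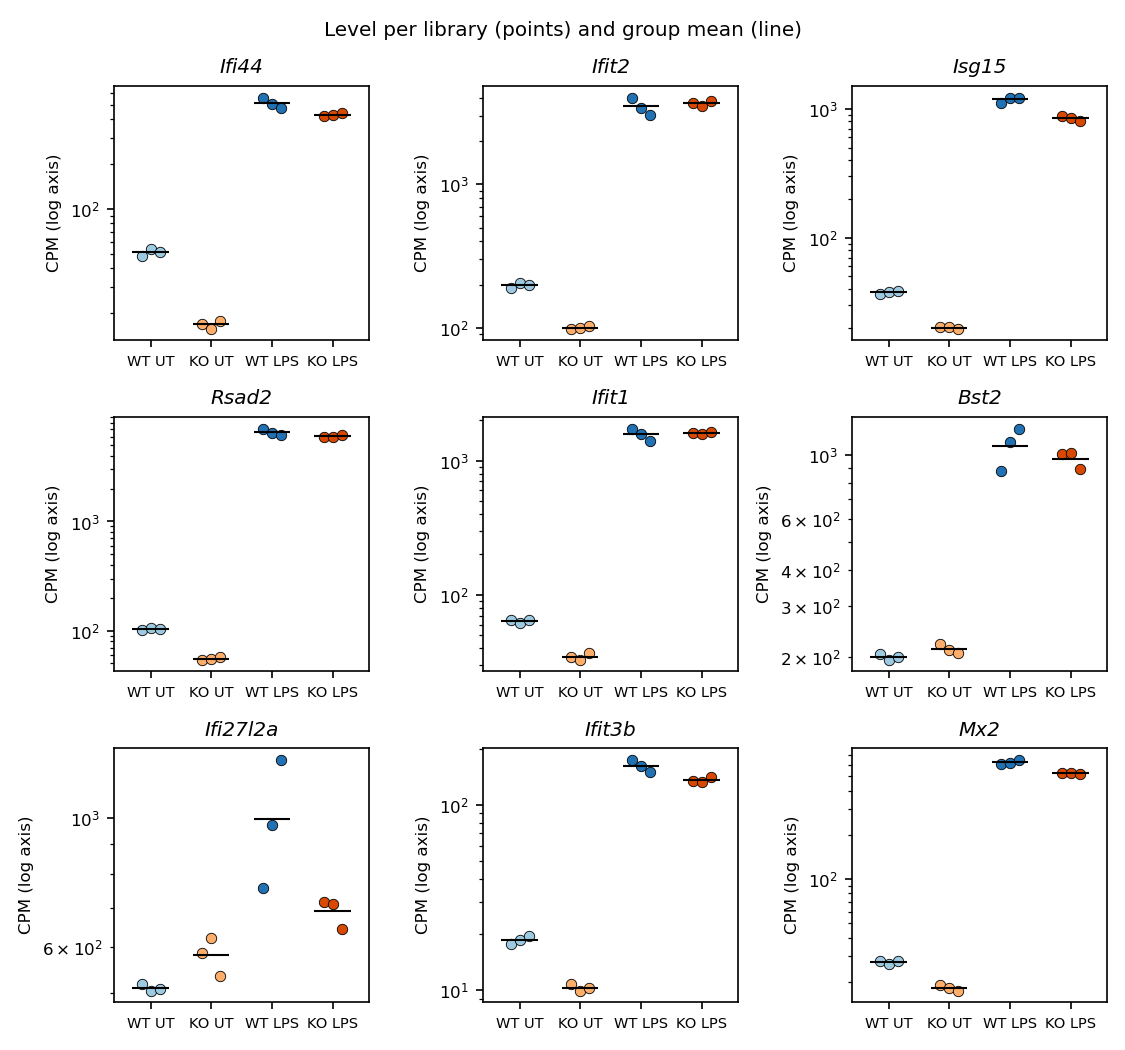
CPM (log axis) of 9 members in each library (points) with the group mean (line), for UT on the left of each panel and LPS on the right. Ifi44, Ifit2, Isg15, Rsad2, Ifit1, Ifit3b and Mx2 have KO UT libraries below WT UT libraries, and in Ifi44, Isg15, Rsad2, Ifit3b, Mx2 and Ifi27l2a the KO LPS libraries lie below the WT LPS libraries. The WT LPS libraries of Ifi27l2a and Bst2 are spread widely.

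For most members, whose level was lower in KO UT and close between genotypes after LPS, the fold change with LPS was larger in KO. This is a ratio to the lower KO UT level. The summed level after LPS was 45159.5 ± 1511 CPM in WT and 42906 ± 528 CPM in KO (SD, n = 3). A response here is a log2 fold change over UT. The difference of the responses, KO minus WT, was tested as an interaction. It was higher in 34 members and lower in 1 at an adjusted p below 0.05, beside 7.32% of all genes higher and 9.5% lower. Ifi44 and Ifit2 were called (Ifi44 alone without WT LPS replicate 3), beside 0.522% of all genes called higher and 1.64% called lower. The median was 0.44, beside -0.01 over all genes. Among markers of other cells, 3 of the 4 tested neutrophil and precursor markers were called lower in the interaction (S100a8, Mpo and Camp) and 2 of the 4 stromal markers higher (Col1a2 and Col3a1). Their summed levels were 18 to 19.3 and 40.1 to 45.2 CPM in WT and KO UT and 50.3 to 79 and 67 to 76.2 CPM in WT and KO LPS for the 6 neutrophil and precursor markers, and 3.42 to 4.3 and 3.26 to 4.05 CPM in UT and 1.27 to 3.21 and 4.69 to 5.9 CPM in LPS for the stromal markers. Their part in the larger responses was not tested.

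Ifi44 rose 9.99-fold in WT and 25.3-fold in KO (interaction 1.34, SE 0.0936), and Ifit2 rose 17.6-fold and 36.4-fold (interaction 1.05, SE 0.100). The next largest were Ifit1 at 0.91, Herc6 at 0.79 and Dtx3l at 0.78. Ifi27l2a went the other way, with a 1.95-fold rise in WT and a 1.19-fold rise in KO (interaction -0.71, edgeR adjusted p 0.00281). The 7 members that did not pass were Isg20, Ifitm3, Bst2, Trim25, Trim21, Nmi and Ifi35, and all of these except Trim25 had also not passed between the genotypes in UT. Of the 12 upstream genes 5 passed with a larger rise in KO, beside 7.32% of all genes, and Irf7 was called (1.15), beside 0.522% called higher. Only Irf7 of the 12 passed with the small RNA covariate, at 0.89. With the small RNA share as a covariate, 10 members passed, all higher and 7 of them among the 34 with a larger rise in KO, and 0 were called. In that fit 0.528% of all genes were higher and 0.722% lower. Isg15 (0.73, edgeR adjusted p 0.0182) and Mx2 (0.64, edgeR adjusted p 0.0394) passed at larger values than without it. Of the largest interactions, Ifi44 still passed at 0.78 (edgeR adjusted p 0.0188), whereas Ifit2 (0.21, edgeR adjusted p 0.556), Ifit1 (0.19, edgeR adjusted p 0.612), Herc6 (0.08, edgeR adjusted p 0.911) and Dtx3l (0.05, edgeR adjusted p 0.94) did not. The interaction of Ifi27l2a turned to 0.89 (edgeR adjusted p 0.00446) under it.

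**Figure D5:**
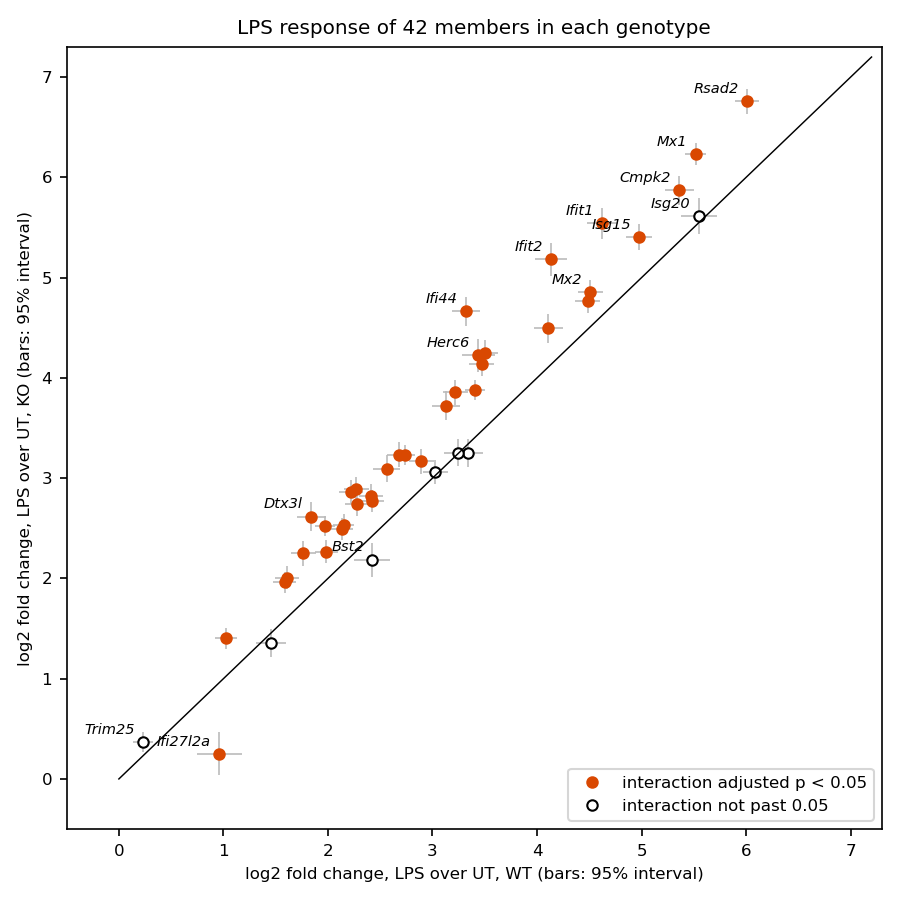
Log2 fold change of LPS over UT in WT (x) and in KO (y) for the 42 tested members, with 95% intervals as bars and equality as a line. Filled points passed the interaction test, and 34 of them lie above the line, among them Ifi44, Ifit2 and Ifit1, and Ifi27l2a lies below it.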

How the data were processed

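Per the study's methods and the labels, the authors extracted total RNA with TRIzol, made stranded total RNA libraries with globin depletion, checked reads with FastQC 0.11.9, mapped read pairs with HISAT2 2.1.0 (build GRCm38) and counted them per gene with featureCounts 2.0.0. The deposited values are raw counts per gene. The annotation release, strand setting and treatment of multi-mapping reads are not given in the sources used here.

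Symbols, coordinates and exon lengths came from GENCODE M21 (GRCm38), matched on the identifier without its version for 48144 of 48526 identifiers. The members, the role groups and the upstream list were chosen with earlier results of these data known. The upstream list holds 12 genes, and 1 further signalling gene is not reported here. Genes were kept by filterByExpr (minimum count 10, minimum total 15), which left 15523 genes with 99.96% of counts. The quasi-likelihood test of edgeR 4.0.16 (limma 3.58.1, R 4.3.3) with TMM scaling was fitted to all 12 libraries as 4 group means, with Benjamini-Hochberg adjustment over all genes tested. SE is the absolute log2 fold change over the square root of F, and intervals are 1.96 SE. CPM values use the same TMM library sizes. Variation between replicates had a common coefficient of 0.0712. The floor of 3 counts allows for counting error alone, as reads were not marked by molecule. The test was also run on simulated counts, and that outcome is not given here. No pair of replicates agreed within sampling noise.

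The labels give each library a batch number equal to its replicate number. Deviations from the group means correlated between same-numbered libraries at -0.0631 to 0.0373 over 18 pairs. Members named with full values are, in each of 5 contrasts, the 5 largest increases and 5 largest decreases that passed at a mean CPM of at least 1, with the 3 highest and 3 lowest levels per kb. Alternatives were RLE and upper-quartile scaling, no filter, protein-coding genes only, DESeq2 1.42.0, a replicate block, the compared groups only and each library left out. The small RNA share as a covariate was chosen after seeing the data. Promoter sequences were from RefSeq. Plots used matplotlib 3.10.9 (Python 3.11.15).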

Additional observations from a re-analysis of the deposited data

Results flagged for a closer look

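The response to LPS, as a log2 fold change over UT, differed between KO and WT in 35 of the 42 tested members. The interaction test of edgeR at an adjusted p below 0.05 was used. It gave 34 with a larger response in KO and 1 with a smaller one, beside 7.32% and 9.5% of all genes. With the small RNA share as a covariate, 7 of the 34 still passed and Ifi27l2a turned to the other direction. The values below are log2 fold changes of KO minus WT. In the IFIT genes they were Ifit2 (1.05), Ifit1 (0.91), Ifit3 (0.74) and Ifit3b (0.60). In the members that act on nucleic acids they were Zbp1 (0.67), Ddx60 (0.64), Znfx1 (0.55), Eif2ak2 (0.46), Adar (0.40) and Samhd1 (0.39). In the direct antiviral effectors they were Rsad2 (0.75), Mx1 (0.71), Cmpk2 (0.51) and Mx2 (0.34). In the ubiquitin and ISG15 genes they were Herc6 (0.79), Dtx3l (0.78), Trim30a (0.62), Trim30d (0.53), Isg15 (0.43) and Uba7 (0.36). In the Parp genes they were Parp12 (0.55), Parp14 (0.50) and Parp9 (0.41), in the nuclear group Sp100 (0.49), Helz2 (0.47), Phf11d (0.39), Sp110 (0.35) and Phf11b (0.28), and in the galectin group Lgals9 (0.64) and Lgals3bp (0.38). In the remaining genes they were Ifi44 (1.34), Rtp4 (0.37), Xaf1 (0.28) and Epsti1 (0.28). Ifi27l2a was the 1 member with a smaller response in KO (-0.71). Xaf1 did not pass without WT UT replicate 3, KO UT replicate 3 or KO LPS replicate 3, and Phf11b did not pass without WT UT replicate 3. These differences share the UT libraries with the comparison of the genotypes without LPS and are not separate evidence from it.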

How the results depend on the processing

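With each library left out in turn, the members passing in UT numbered 34 to 35, in LPS 7 to 14 and in the interaction 33 to 36, and those called numbered 1 to 2, 0 to 0 and 1 to 2. The called count in UT was 2 in place of 1 under RLE scaling, upper-quartile scaling, DESeq2 and the small RNA covariate, and without WT UT replicate 1 or KO UT replicate 3. Without WT LPS replicate 1, 14 passed in LPS in place of 8, and without WT LPS replicate 3 the interaction called 1 in place of 2. The covariate for small RNA share was added once the data had been seen, and its slope rests mostly on the WT LPS libraries. The covariate gave 21 in place of 35 passing in UT, and 10 in place of 35 in the interaction with 0 called there. The interaction of Cmpk2 fell to -0.024 and did not pass (edgeR adjusted p 0.977). That of Ifi27l2a turned to 0.89 (edgeR adjusted p 0.00446). The cause was not tested. The replicate block kept 35, 8 and 35 members passing, all shared with the fit without it. With it, 1 other test lost its pass, the LPS response of Ifi27l2a in KO (edgeR adjusted p 0.0615). RLE scaling moved the median of all genes in UT to -0.07, with 36 members lower. That shift moves genes in general toward lower values in KO UT, and the share of all genes lower under it was not counted. The other counts in this paragraph have a share of all genes only where 1 is printed above. The depth limits Ifi44l in every library and Ifnb1 in the UT libraries, which were at or near 0 counts.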
